A study of Mus musculus with 6 samples.

Results

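The HIF pathway and hypoxia genes described here are 10 genes that respond to, or control the response to, low oxygen and that lie outside glycolysis: Hif1a, Egln1, Egln3, Bnip3, Ankrd37, P4ha1, Ero1a, Ndrg1, Adm and Pdk1. They were taken by symbol from a table of 20591 mouse genes, and all 10 were found. RNA was sequenced from colon B cells, obtained by sorting, of mice that had received either DMSO, the solvent control, or lenvatinib, an inhibitor of the receptor kinases for VEGF and FGF among others, with 3 libraries in each group. The series title concerns colitis and the traffic of B cells to the gut. The labels give the treatment and a biological replicate number. For strain, age, dose, duration and inflammatory state no information was given in the sources used. Since separate animals are not stated either, the spread on which p-values rest may be a technical one.

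Cells sense oxygen through enzymes that use it. The prolyl hydroxylases encoded by the Egln genes modify the HIF alpha subunit in the presence of oxygen, the Vhl ubiquitin ligase then marks it for destruction, and the alpha subunit escapes this when oxygen is scarce. It then pairs with Arnt and binds a short DNA element, the hypoxia response element, near genes for glycolysis, mitochondrial turnover, collagen modification, protein folding and vessel growth. Hif1a is thus controlled largely at the level of its protein, which RNA sequencing does not measure. In B cells HIF-1 activity is known from germinal centres and from activation.

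Of the 10 genes, 5 rose with lenvatinib and 0 fell in limma at an adjusted p of 0.05, against 10.4 percent of all 9937 tested genes called higher and 8.21 percent called lower. At an unadjusted p below 0.05 the counts were 7 higher and 0 lower, against 17.6 and 14.7 percent of all tested genes. Limma-voom, another form of the test on recovered reads, called 5 higher and 0 lower, against 12.7 and 12.3 percent of its 9893 tested genes. The genes that rose were P4ha1, Ndrg1, Pdk1, Egln3 and Ero1a. Bnip3 and Ankrd37 missed the threshold although all 3 lenvatinib libraries lay above all 3 DMSO libraries. Such a separation upward was found for 7 of the 10 genes and for 18.9 percent of all tested genes. Hif1a, Egln1 and Adm overlapped between the groups. The median log2 change of the 10 genes was 0.35, against 0.01 over all tested genes. The 10 genes were chosen with earlier results of these data known. These contrasts with all tested genes therefore describe the list and do not test it. In these bulk libraries fewer cells of a type and less RNA per cell cannot be told apart. Changes are on the scale of log2(scaled FPKM + 1), where FPKM is a read count corrected for gene length and sequencing depth, and this scale understates the change of low genes.

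**Figure D1:**
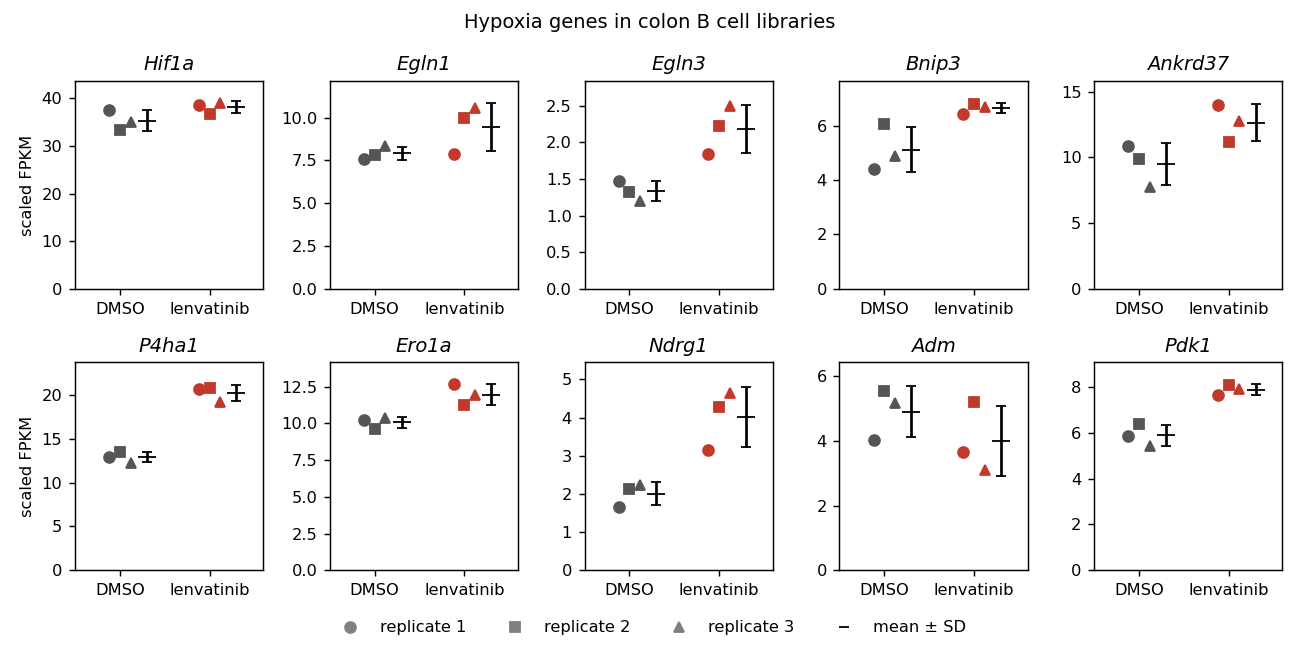
Scaled FPKM of each of the 10 genes (vertical axes from 0, a separate range for each gene) in the 3 DMSO and 3 lenvatinib libraries; points are libraries, with the symbol giving the replicate number, and bars are mean ± SD. P4ha1 stood at 12.3 to 13.4 in DMSO and at 19.1 to 20.8 in lenvatinib libraries, while Hif1a, Egln1 and Adm overlapped.

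The libraries were not equal in other cell types. The summed scaled FPKM of 12 B cell markers was 2886 to 2925 in DMSO and 2411 to 2451 in lenvatinib libraries, so genes that define the labelled cell type were abundant in every library. Of these 12 markers 11 were called lower in limma, with a median log2 change of −0.25. The sums of 7 plasma cell markers were 365 to 368 in DMSO and 337 to 354 in lenvatinib libraries. Of the 6 tested, Jchain was called higher and Irf4 lower. For 12 T cell markers the sums were 25.4 to 28.5 and 107 to 112, and 8 of the 11 tested genes were called higher. For 11 natural killer and innate lymphoid markers they were 22.9 to 24.9 and 103 to 109, with 8 of 8 tested genes called higher. For 12 colon epithelium markers they were 14.1 to 14.6 and 59.6 to 62.9, with 7 of 7 called higher. Trat1 of the T cell list, Klrb1c of the natural killer list and Krt8, Krt19 and Cdh1 of the epithelium list were below 1 in all 3 DMSO libraries, so they could pass the filter only through their lenvatinib libraries. Neutrophil markers summed to 6.38 to 7.48 and 11.7 to 17.1, macrophage and dendritic cell markers to 48.6 to 50.7 and 55 to 61.9. Of these 2 of 3 and 1 of 7 tested genes were called higher. In the endothelial and the fibroblast list 1 gene each was tested. Pecam1 was called lower, with mean scaled FPKM of 42.3 in DMSO and 32.9 in lenvatinib libraries. The other endothelial markers were below the filter, with group means of at most 0.407, so a change of endothelial RNA as such was not tested. Acta2, which was below 1 in all 3 DMSO libraries, was called higher. No marker of these lists was at 0 in all 6 libraries. Many hypoxia genes are active in these cell types too, and the part of other cells in the changes below was not tested.

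The promoters of the genes that rose are shown because HIF acts through a defined DNA element, together with that of Adm, a textbook HIF target that did not pass the test here. The 5-base core of the hypoxia response element was searched as ACGTG and as GCGTG on both strands, in windows from 250 bases before to 50 bases after each start, taken from RefSeq on build GRCm38.p6. Of the 10 genes 9 matched the RefSeq table by symbol, with 10 windows, and Ndrg1 did not. The lines give the 250 bases before the start, 5′ to 3′ on the gene's strand, with complete matches on either strand in capitals; on the opposite strand ACGTG reads as CACGT and GCGTG as CACGC.
P4ha1, chr10:59323046-59323295, plus strand: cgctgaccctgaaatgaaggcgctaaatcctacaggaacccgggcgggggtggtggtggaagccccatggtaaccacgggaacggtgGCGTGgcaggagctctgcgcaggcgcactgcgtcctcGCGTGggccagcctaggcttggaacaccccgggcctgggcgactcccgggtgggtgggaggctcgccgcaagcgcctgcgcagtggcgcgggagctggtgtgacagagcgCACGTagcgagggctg
Pdk1, chr2:71872974-71873223, plus strand: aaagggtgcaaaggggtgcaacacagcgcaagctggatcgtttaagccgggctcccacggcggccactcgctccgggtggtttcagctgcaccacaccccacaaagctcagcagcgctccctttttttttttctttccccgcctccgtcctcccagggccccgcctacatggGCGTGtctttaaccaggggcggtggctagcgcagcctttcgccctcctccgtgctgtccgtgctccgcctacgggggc
Ero1a, chr14:45318573-45318822, minus strand: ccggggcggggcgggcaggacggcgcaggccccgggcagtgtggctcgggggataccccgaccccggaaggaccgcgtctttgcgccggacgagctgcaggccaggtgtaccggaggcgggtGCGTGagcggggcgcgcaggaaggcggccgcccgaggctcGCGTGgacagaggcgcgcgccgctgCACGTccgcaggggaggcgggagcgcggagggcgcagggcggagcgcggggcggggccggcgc
Egln3, chr12:54203875-54204124, minus strand: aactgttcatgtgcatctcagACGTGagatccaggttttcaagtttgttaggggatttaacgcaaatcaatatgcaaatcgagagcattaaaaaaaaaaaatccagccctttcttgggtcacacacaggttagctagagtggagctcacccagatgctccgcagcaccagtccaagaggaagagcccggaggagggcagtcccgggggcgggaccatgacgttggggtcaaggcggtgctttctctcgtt
Adm, chr7:110627407-110627656, plus strand: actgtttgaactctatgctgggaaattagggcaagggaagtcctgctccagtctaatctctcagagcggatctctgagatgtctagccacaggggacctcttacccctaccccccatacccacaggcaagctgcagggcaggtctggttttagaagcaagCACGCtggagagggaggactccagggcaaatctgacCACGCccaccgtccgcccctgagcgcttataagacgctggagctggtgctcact

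At least 1 match was present in 9 of the 10 windows. P4ha1 held 3 matches and Ero1a also 3, Pdk1 held 2 at its first start, of which the second spans the start and is not among the bases printed, and 0 at its other start. Egln3 held 1, an ACGTG whose first base is at position −229 from the start, and Adm held 2, both on the opposite strand. Among the windows not printed Bnip3 held 5, Ankrd37 4, Hif1a 3 and Egln1 2. The end of the Hif1a window was not found in an annotated transcript of the gene, unlike that of every other window. Positions from the start are therefore less certain for Hif1a. A palindromic CACGTG was counted on both strands, as in Bnip3 and Hif1a, and the same letters are the E-box bound by other factors. Such short letters are frequent: 63.5 percent of 10016 windows of tested genes held at least 1 match, and so did 63.3 percent of the 1036 windows of genes called higher. For 2 or more matches the shares were 35.1 and 35.7 percent, beside 8 of 10 windows for the hypoxia genes. The latter were listed for their known link to low oxygen, so their share is no independent result. A match describes the letters and is not evidence of binding.

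**Figure D2:**
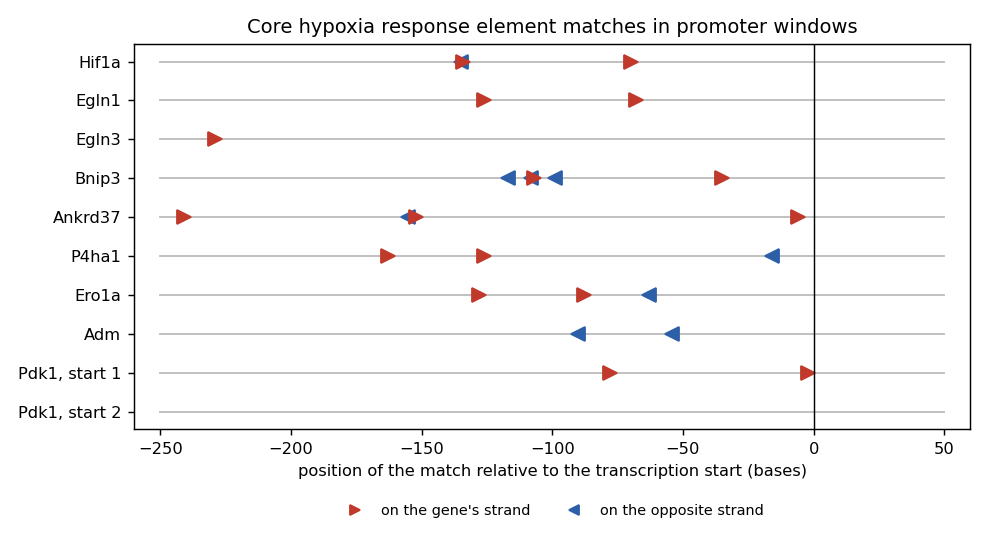
Positions of the core element matches (horizontal axis, bases relative to the transcription start, at the first base of each match) in the 10 promoter windows of 9 hypoxia genes, with right-pointing marks for the gene's strand and left-pointing marks for the opposite strand. Matches lay before the start or across it, from 1 in Egln3 to 5 in Bnip3, and the other start of Pdk1 had 0.

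Hif1a, the oxygen-controlled subunit of HIF-1, was the most abundant of the 10 genes. Its scaled FPKM was 37.6, 33.3 and 35.0 in DMSO replicates 1, 2 and 3 and 38.5, 36.7 and 39.1 in lenvatinib replicates 1, 2 and 3. The groups overlapped, since DMSO replicate 1 lay above lenvatinib replicate 2. The log2 change was 0.11 (SE 0.05, 95% interval −0.01 to 0.23, limma adjusted p = 0.2), and 0 of 16 alternative settings brought it past the threshold.

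Egln1 and Egln3 encode prolyl hydroxylases that mark HIF alpha in the presence of oxygen, and both genes are themselves induced by HIF. Egln1, the main oxygen sensor in most cells, had values of 7.58, 7.84 and 8.32 in DMSO and 7.86, 9.97 and 10.5 in lenvatinib libraries. Lenvatinib replicate 1 lay within the DMSO range and the other two above it. The log2 change was 0.22 (SE 0.10, 95% interval −0.01 to 0.45, limma adjusted p = 0.17). It passed the threshold in 1 of 16 alternatives, the fit without lenvatinib replicate 1, with 0.34 (limma adjusted p = 0.0293). Without lenvatinib replicate 3, the highest value, it was 0.15 (limma adjusted p = 0.408). Egln3, the least abundant of the 10 genes, had 1.48, 1.32 and 1.20 in DMSO and 1.84, 2.22 and 2.49 in lenvatinib libraries. All 3 lenvatinib values were above the DMSO range, and the log2 change was 0.44 (SE 0.12, limma adjusted p = 0.0328). The Egln3 values rest on 111 to 212 reads per library, and the call was lost in 8 of 15 alternatives, with adjusted p from 0.0243 to 0.106. Among them were the removal of any DMSO library or of lenvatinib replicate 2 or 3, and the fit without a filter on low values.

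The other regulators of the pathway showed small differences in either direction. Of 17 genes for HIF subunits, oxygen sensors, the degradation machinery and coactivators, 13 were tested, and their median log2 change was −0.02. Among the 13, 1 rose and 1 fell, 7.69 percent each, near the 10.4 and 8.21 percent of all tested genes. Siah2, a ubiquitin ligase that acts on the Egln enzymes, rose from 32.8 ± 1.01 to 39.2 ± 1.22 (SD, n = 3) (log2 change 0.25 with SE 0.05, limma adjusted p = 0.00526). Egln2, the third prolyl hydroxylase, fell from 97.8 ± 2.20 to 87.7 ± 3.57 (log2 change −0.16 with SE 0.04, limma adjusted p = 0.0224). Egln2 was therefore the most abundant of the 3 hydroxylase genes per length and went down where Egln3 went up. The call was lost in 7 of 16 alternatives, among them the fits without DMSO replicate 2 or 3 and without lenvatinib replicate 1 or 3.

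Arnt, the partner of HIF alpha, stood at 29.9 ± 2.25 and 28.0 ± 0.712, and Vhl at 14.8 ± 1.18 and 14.9 ± 1.14. Hif1an, an asparagine hydroxylase that blocks coactivator binding, was at 17.5 ± 1.42 and 17.2 ± 0.868. The coactivators Ep300 and Crebbp were at 17.9 ± 1.08 and 18.1 ± 0.306, and at 14.7 ± 0.370 and 13.4 ± 0.876. The Vhl complex partners Elob, Eloc, Cul2 and Rbx1 had log2 changes of 0.12, 0.21, −0.09 and 0.05, and Cited2, a competitor for the coactivators, and Siah1a had −0.15 and −0.02. None of these 11 passed limma's threshold. Epas1, which encodes HIF-2 alpha, was below the filter at 0.505 ± 0.118 and 0.808 ± 0.198, as were Hif3a, Arnt2 and P4htm, whose means were at most 0.238.

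P4ha1 and Ero1a act in the endoplasmic reticulum. P4ha1, the catalytic subunit of collagen prolyl 4-hydroxylase, showed the smallest p of the 10 genes. Its values were 12.9, 13.4 and 12.3 in DMSO and 20.6, 20.8 and 19.1 in lenvatinib libraries, so the lowest lenvatinib value was well above the highest DMSO value. The log2 change was 0.61 (SE 0.06, limma adjusted p = 0.00016), larger in size than that of 96.7 percent of tested genes, and the ratio of group means was 1.57. It passed in all 16 alternatives. Ero1a, an oxidase that helps form disulfide bonds, had 10.2, 9.64 and 10.3 in DMSO and 12.7, 11.3 and 11.9 in lenvatinib libraries. The groups were apart, and the log2 change was 0.23 (SE 0.07, limma adjusted p = 0.0485). This call was at the threshold and was lost in 11 of 16 alternatives, with adjusted p from 0.0171 to 0.147, among them the removal of any library, by which the change became 0.18 to 0.26.

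Relatives of these enzymes did not all move with them. P4hb, the disulfide isomerase that also serves as the beta subunit of the collagen hydroxylase, rose from 79.6 ± 3.40 to 100 ± 0.876 (log2 change 0.33 with SE 0.04, limma adjusted p = 0.000353). P4ha2, another catalytic subunit, was below the filter at 0.302 ± 0.262 and 1.04 ± 0.190. Ero1b, the relative of Ero1a, fell from 90 ± 0.485 to 80.9 ± 3.12 (log2 change −0.15 with SE 0.04, limma adjusted p = 0.0199), a call lost in 5 of 16 alternatives, among them the fits without DMSO replicate 1 and without lenvatinib replicate 1 or 2. Per length Ero1b was the more abundant of the Ero1 genes in both groups. The fibroblast collagen genes Col1a1, Col1a2 and Col3a1, whose products the enzyme modifies, had group means of at most 0.447.

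Pdk1 and Bnip3 act at the mitochondrion. Pdk1, the kinase that switches off pyruvate dehydrogenase and so keeps pyruvate out of the citric acid cycle, had 5.85, 6.36 and 5.43 in DMSO and 7.63, 8.08 and 7.90 in lenvatinib libraries. The groups did not overlap, the log2 change was 0.37 (SE 0.08, limma adjusted p = 0.0113), and it passed in all 16 alternatives. Its relatives showed no such call. Pdk2, near the filter, was at 0.784 ± 0.266 and 1.07 ± 0.298. Its log2 change was 0.22 with a 95% interval of −0.15 to 0.59, which includes the change of Pdk1. Pdk3 was at 3.62 ± 0.180 and 3.62 ± 0.0829, with a 95% interval of −0.19 to 0.19 for the log2 change. Pdk4 was below the filter. The opposing phosphatases Pdp1 and Pdp2 had log2 changes of −0.08 and −0.03, and Pdha1, the subunit on which Pdk1 acts, had −0.08, none past the threshold in limma.

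Bnip3, an outer membrane protein that directs mitochondria to autophagy, had 4.42, 6.05 and 4.88 in DMSO and 6.43, 6.79 and 6.67 in lenvatinib libraries. The lenvatinib libraries lay close together above the spread-out DMSO libraries. The log2 change was 0.33 (SE 0.10, 95% interval 0.09 to 0.56, limma adjusted p = 0.0564), and 3 of 16 alternatives brought it past the threshold. Without DMSO replicate 2, the highest DMSO value, it was 0.43 (limma adjusted p = 0.0164). Without DMSO replicate 1, the lowest, it was 0.24 (limma adjusted p = 0.161). Its close relative Bnip3l, with the same role, rose from 20.3 ± 1.12 to 26.5 ± 1.1 (log2 change 0.37 with SE 0.06, limma adjusted p = 0.00222). Bnip3l was thus the more abundant of the pair in both groups.

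Ndrg1, a cytoplasmic protein linked to differentiation and stress and strongly induced by hypoxia, had the largest log2 change of the 10 genes as reported. It had 1.66, 2.13 and 2.24 in DMSO and 3.15, 4.27 and 4.64 in lenvatinib libraries. Every lenvatinib value was above the highest DMSO value, the ratio of group means was 2.00, and the log2 change was 0.73 (SE 0.14, limma adjusted p = 0.00602). The Ndrg1 change was larger in size than that of 97.6 percent of tested genes and passed in all 15 alternatives that tested it. With a pseudocount of 5 it was 0.36, behind P4ha1 at 0.49, and without lenvatinib replicate 3 the values were 0.64 for Ndrg1 and 0.65 for P4ha1. Lenvatinib replicate 1 had the lowest lenvatinib value of Ndrg1, as it had for Egln1, Egln3, Bnip3 and Pdk1. It had the highest for Ero1a and Ankrd37. Of the relatives of Ndrg1, Ndrg3 was at 8.27 ± 0.654 and 8.52 ± 0.671, and Ndrg2 and Ndrg4 were below the filter with means of at most 0.197.

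Ankrd37, a small ankyrin repeat protein known mainly as a HIF target, had 10.9, 9.90 and 7.75 in DMSO and 14.0, 11.2 and 12.8 in lenvatinib libraries. The groups were apart by a narrow margin, between DMSO replicate 1 and lenvatinib replicate 2. The log2 change was 0.39 (SE 0.12, 95% interval 0.12 to 0.65, limma adjusted p = 0.052), and 5 of 16 alternatives brought it past the threshold. Without DMSO replicate 1, the highest DMSO value, it was 0.48 (limma adjusted p = 0.0339). Without DMSO replicate 3, the lowest, it was 0.26 (limma adjusted p = 0.132).

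Adm, which encodes the vasodilator peptide adrenomedullin, was the member with a lower mean. It had 4.02, 5.54 and 5.16 in DMSO and 3.67, 5.20 and 3.11 in lenvatinib libraries. The groups overlapped, and the log2 change was −0.26 (SE 0.16, 95% interval −0.61 to 0.10, limma adjusted p = 0.31), with 0 of 15 alternatives past the threshold. Its receptor pairs Calcrl with a Ramp protein. Calcrl stood at 3.27 ± 0.302 and 3.18 ± 0.367. Ramp3 had 3.69, 3.16 and 3.46 in DMSO and 17.0, 17.4 and 14.4 in lenvatinib libraries, with no overlap. The log2 change was 1.96 (SE 0.09, limma adjusted p = 2.66e-06), while Ramp1 and Ramp2 were below the filter with means of at most 0.242. Ramp3 rose beside the T cell, natural killer and epithelial marker sums given above, and their part in it was not tested.

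**Figure D3:**
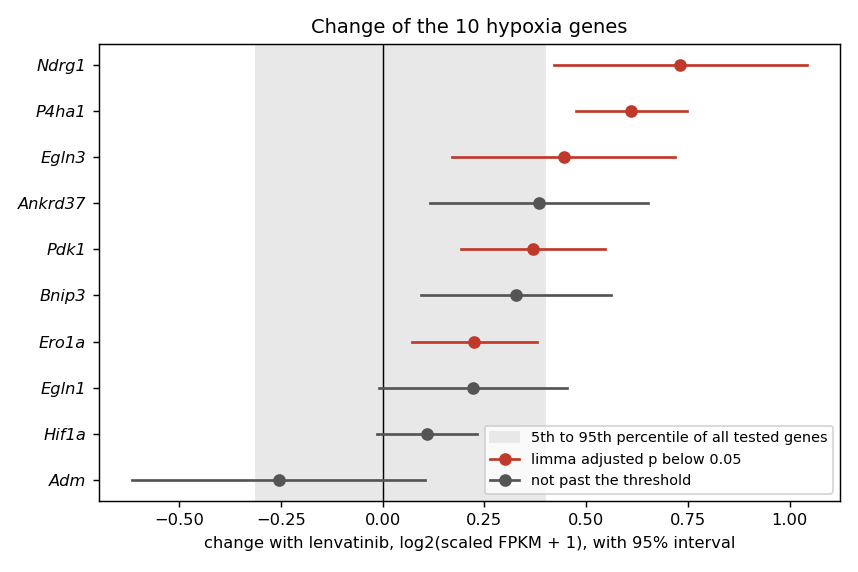
Change with lenvatinib of each of the 10 genes (horizontal axis, difference in log2(scaled FPKM + 1)), with points for the estimate, bars for the 95% interval and red for limma adjusted p below 0.05; the grey band runs from the 5th to the 95th percentile of all tested genes. The changes ran from −0.26 for Adm to 0.73 for Ndrg1, and the estimates of Ndrg1, P4ha1 and Egln3 lay outside the band.

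The calls differed in how firmly they held. P4ha1, Pdk1 and Ndrg1 passed in every setting that tested them, with log2 changes of 0.49 to 0.65, 0.24 to 0.42 and 0.36 to 0.96. Egln3 and Ero1a passed as reported and lost the call in 8 of 15 and 11 of 16 alternatives. No gene changed its direction in any of 157 values under the alternatives.

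**Figure D4:**
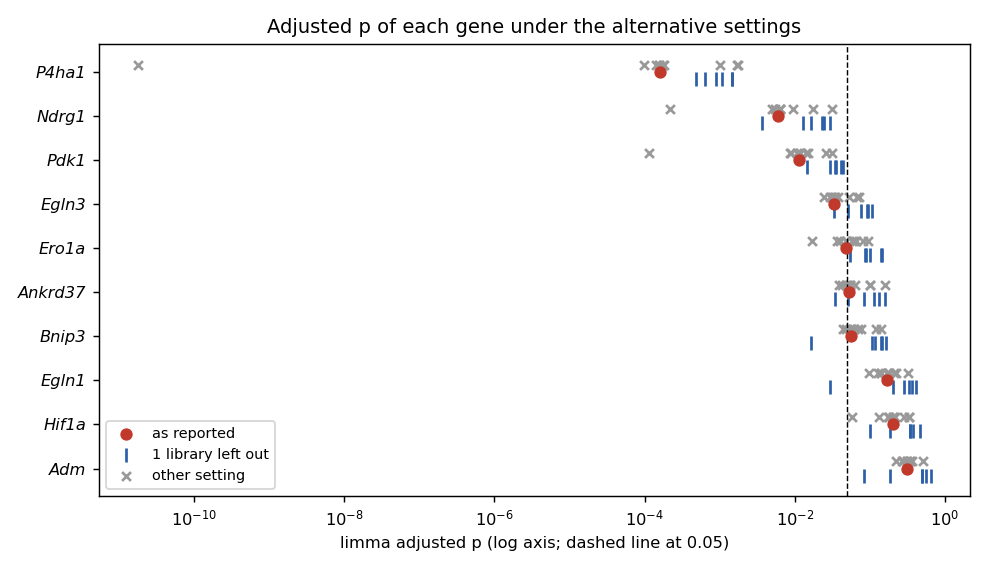
Adjusted p of each gene (horizontal log axis, dashed line at 0.05) as reported (red), with 1 library left out (blue ticks) and under the other settings (grey crosses). P4ha1, Ndrg1 and Pdk1 stayed left of 0.05 throughout, with at most 0.0432, and the smallest value, for P4ha1, came from limma-voom.

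The 10 genes differed in level and in scatter. By scaled FPKM in DMSO the order was Hif1a, P4ha1, Ero1a, Ankrd37, Egln1, Pdk1, Bnip3, Adm, Ndrg1 and Egln3. Neighbours whose DMSO ranges overlapped were Ero1a with Ankrd37, Ankrd37 with Egln1, Pdk1 with Bnip3 and Bnip3 with Adm. In lenvatinib libraries Ankrd37 stood before Ero1a and Ndrg1 before Adm by their means. The lowest value of any of the 10 genes was 1.20, so all 10 passed the filter in both groups and none entered through its lenvatinib libraries alone. Reads per library ran from 111 for Egln3 to 6128 for Hif1a. Bnip3 in lenvatinib libraries apart, the spread between libraries was larger than counting error. For Adm the coefficient of variation was 16.1 percent in DMSO and 27.1 percent in lenvatinib libraries, where counting alone gives 7.05 and 7.79 percent. For Egln3 in DMSO it was 10.3 percent against 9.17 percent from counting. Bnip3 in lenvatinib libraries varied by 2.75 percent, below the 5.39 percent that counting gives on average.

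Some of these genes share exon bases with a neighbour. In the GENCODE M21 annotation, which is of another build than the authors' counts, Gm49321, on the same strand, covers 148 of 5896 exon bases of Hif1a, where strand could not separate the reads. Genes on the opposite strand cover 330 exon bases of Hif1a, 504 of 2265 of Bnip3, 419 and 137 of 6596 of Ndrg1, and 349 and 57 of 1539 of Ankrd37. The gene lengths recovered from the FPKM values were shorter, at 4990 bases for Hif1a, 1756 for Bnip3, 2890 for Ndrg1 and 774 for Ankrd37. Whether the shared bases were counted is therefore not known. Nor is it stated whether strand was used. If the shared bases were counted, reads of these genes and their neighbours cannot be told apart there. P4ha1, Pdk1, Ero1a, Egln1, Egln3 and Adm had no such overlap.

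Of 37 other hypoxia-inducible genes outside glycolysis 23 were tested, 5 rose and 1 fell, beside the 10.4 and 8.21 percent of all tested genes given above, and their median log2 change was 0.11. Besides Bnip3l these were Mif, a cytokine, from 130 ± 10.5 to 172 ± 7.12, Jmjd6, a hydroxylase of lysines, from 33.4 ± 2.62 to 43.7 ± 1.72, and Higd1a, a mitochondrial membrane protein, from 14.0 ± 1.02 to 18.4 ± 1.20. The histone demethylase Kdm3a rose from 22.4 ± 1.36 to 25.6 ± 0.313 with limma adjusted p = 0.0496, a call lost in 11 of 16 alternatives (adjusted p from 0.00578 to 0.147), among them the removal of any library except DMSO replicate 2. Mif has near-identical pseudogene copies whose reads the counting could split. The gene that fell was Cxcr4, a chemokine receptor of B cells, from 241 ± 5.10 to 198 ± 3.91 (log2 change −0.28 with SE 0.03, limma adjusted p = 0.000188). Vegfa, the vessel growth factor whose receptors lenvatinib inhibits and a HIF target, was at 11.6 ± 0.946 and 12.7 ± 1.02 (limma adjusted p = 0.349). Ddit4 was at 44.2 ± 3.20 and 41.7 ± 0.998, and Hmox1 at 7.20 ± 1.34 and 7.82 ± 1.23, neither past the threshold. These 3 were named once their values were known. The 14 genes below the filter included Car9, a classical hypoxia marker, at 0.0804 ± 0.115 and 0.193 ± 0.2, also named after its values were seen.

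Glycolysis genes, many of them HIF targets, had a median log2 change of 0.31. Of 20 tested, 12 were called higher and 1 lower, beside 10.4 and 8.21 percent of all tested genes. The 6 with the smallest p were all higher. Ldha, which makes lactate from pyruvate, rose from 45.3 ± 0.565 to 80.0 ± 2.84, and Tpi1, Pgk1 and Eno1 rose from 37.4 ± 1.83 to 72.2 ± 1.66, from 63.1 ± 1.75 to 99.2 ± 1.20 and from 88.3 ± 2.80 to 138 ± 6.55. Pfkl rose from 13.2 ± 0.617 to 22.2 ± 0.457 and Pkm from 45.4 ± 1.56 to 65.2 ± 1.95. These genes, like Mif, may have pseudogene copies whose reads the counting could split. A further pair was named with its values known. The glucose transporter Slc2a1 fell from 60.8 ± 1.08 to 47.3 ± 1.26. Slc16a3, the lactate exporter, had a DMSO mean of 0.641 and could pass the filter only through its lenvatinib libraries. It is among the 12 called higher.

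**Figure D5:**
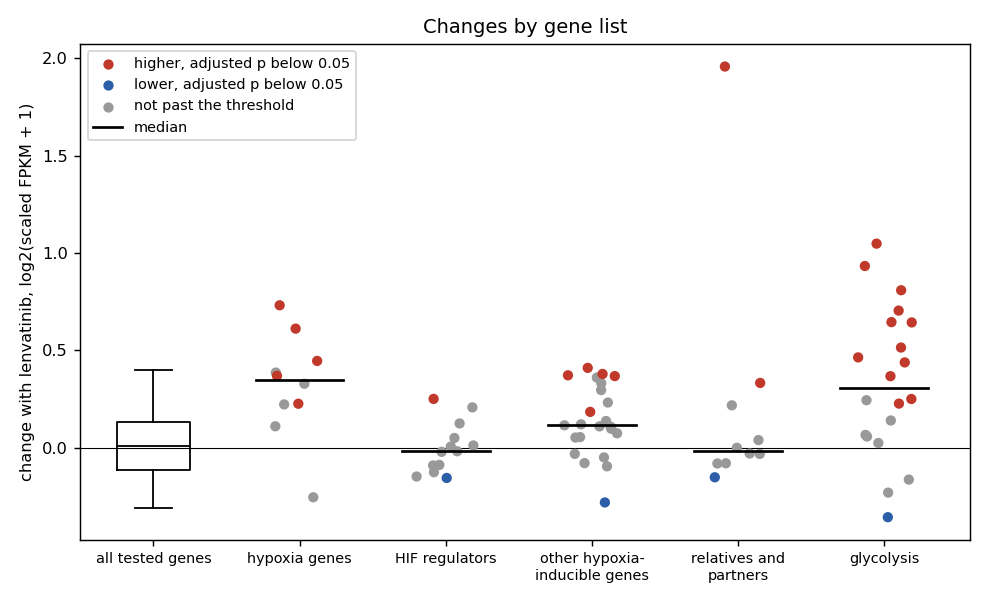
Changes with lenvatinib (vertical axis, difference in log2(scaled FPKM + 1)) of all tested genes (box with the quartiles, whiskers at the 5th and 95th percentiles) and of each tested gene in 5 lists, with red for genes called higher, blue for genes called lower, grey for the others and a black line for each list's median. Medians were 0.35 for the 10 hypoxia genes, −0.02 for HIF regulators, 0.11 for other hypoxia-inducible genes, −0.02 for relatives and partners and 0.31 for glycolysis, and the highest point is Ramp3 at 1.96.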

How the data were processed

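Per the labels' protocols, TRIzol was used for RNA extraction and a VAHTS kit for library construction. Per the submitters' processing notes, HTSeq and build GRCm39 were used, while the aligner, annotation and strand setting are not given in the sources used here. As deposited by the authors, the table holds FPKM values, and each column was matched through the name in its sample's description. FPKM were scaled by median-of-ratios factors (0.992 to 1.009). A gene was tested if its scaled FPKM reached 1 in at least 3 of the 6 libraries, which all 10 members did. The values log2(scaled FPKM + 1) were fitted on treatment in limma 3.58.1 under R 4.3.3 with trend and robust moderation, two-sided, with Benjamini-Hochberg adjustment over all 9937 tested genes.

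Totals of 26635279 to 31655500 reads per library were recovered from the FPKM steps through the annotated lengths of 13 mitochondrial genes, and gave whole reads, to a relative tolerance of 1e-05, for 99.8 percent of genes with any value. Within groups log values correlated across genes at 0.9932 to 0.994, and between groups at 0.9835 to 0.9845, where genes are not independent replicates. Both procedures were tested on simulated data.

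The members and gene lists were chosen with earlier results of these data known. All members and HIF regulators are named, and in each further list up to 6 called genes of smallest p. Alternatives were other pseudocounts, filters, scalings and moderation, a replicate block, each library left out, and limma-voom on the recovered reads, which was added after seeing the data.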

Additional observations from a re-analysis of the deposited data

How the results depend on the processing

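The 10 genes kept their direction in all 157 values under the 16 alternatives; Egln3, Ndrg1 and Adm were not tested with a mean scaled FPKM of at least 5. The number of them called higher, 5 as reported, was 3 without a filter on low values and 3 with quantile normalization, and 3 to 5 with 1 library left out. It was 3 without DMSO replicate 3 or lenvatinib replicate 2 or 3. Scaling to the sum of FPKM and limma without trend and robust moderation gave 4, FPKM as deposited 7. Over all genes, the number called higher was 1038 as reported and 673 to 827 with 1 library left out, lowest without lenvatinib replicate 2 and 680 without replicate 1. Leaving out 1 library gave 1 to 2 HIF regulators called higher, 0 to 1 called lower and 0 to 1 relatives called lower. Limma-voom gave 2 regulators higher, 2 lower and 2 glycolysis genes lower. Without a filter on low values 0 regulators and 0 relatives were called lower, and limma without trend and robust moderation gave the same 0 for both.

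Replicate numbers are shared by the groups, but deviations of same-numbered libraries from their group means correlated at −0.007, 0.006 and −0.005, so the numbers were not taken to pair the samples. With a replicate block 1542 genes were called, against 1854, with 4 of the 10 hypoxia genes higher and 0 regulators lower. Ankrd37 was then past the threshold (limma adjusted p = 0.0474), Egln3 and Ero1a were not (0.0721 and 0.0649). Depth limits the genes of few reads: the lowest counts in a library were 111 for Egln3, 120 for Adm and 127 for Ndrg1.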
